A study of Mus musculus with 6 samples.

Results

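The 7 mouse genes that encode inhibitors of the cyclin-dependent kinases were followed through leukaemia cells in which one copy of Usp18 had been targeted. They are Cdkn1a, Cdkn1b and Cdkn1c of the CIP/KIP family and Cdkn2a, Cdkn2b, Cdkn2c and Cdkn2d of the INK4 family, and all 7 had a row among the 23608 of the count table. The set was selected on Cdkn1a, which was known to be higher in the tamoxifen libraries, and the other 6 genes were added by family name. The Cdkn1a values are therefore a description and carry no test, while the other 6 carry the adjusted p-value of a fit over all tested genes.

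Both groups came from leukaemia cells driven by AE9a, a truncated AML1-ETO fusion protein, that were Usp18+/f and carried a Cre recombinase switched on by tamoxifen. Recipient mice that had become sick were given oil (3 libraries, genotype Usp18+/f) or tamoxifen (3 libraries, genotype labelled Usp18+/D), and on day 3 after injections began the GFP+ Lin- c-Kit+ cells of the spleen were sorted. By the study's methods its mice were young adults of both sexes. No oil-treated or tamoxifen-treated cells without the floxed allele were among the 6 libraries, so the effect of tamoxifen with active Cre and the effect of losing one Usp18 copy cannot be told apart. Nothing in the labels says that the libraries came from separate primary leukaemias, so the p-values measure the spread between these libraries.

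CDK inhibitors hold back the kinases that carry a cell through its division cycle. CIP/KIP proteins bind whole cyclin-CDK complexes and act mainly on CDK2, whereas INK4 proteins bind CDK4 and CDK6 and keep the D-type cyclins off them. Both routes leave the retinoblastoma family proteins less phosphorylated and so keep E2F factors in check. Cdkn1a, which encodes p21, is the best known direct target of p53, and Cdkn2c, which encodes p18, is known for limiting the self-renewal of blood stem cells.

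The bases ahead of the start sites are shown for 4 of the genes, to set the 2 start sites of Cdkn1a beside a relative whose groups overlapped (Cdkn1b) and those that were higher (Cdkn2b) or lower (Cdkn2c) with tamoxifen. RefSeq promoter windows on GRCm38.p6 (the build also called mm10) were found for 6 of the 7 genes, with 9 start sites in all, since Cdkn1a, Cdkn2a and Cdkn2c each have 2. No window was found for Cdkn1c. Each line gives the 250 bases before a start site, 5′ to 3′ on the gene's own strand. Capitals mark a p53 half-site and the full p53 site described next in the first line, and matches to the GC box GGGCGG or the CCAAT box in the others, each searched on both strands.
Cdkn1a upstream start, chr17:29090729-29090978, plus strand: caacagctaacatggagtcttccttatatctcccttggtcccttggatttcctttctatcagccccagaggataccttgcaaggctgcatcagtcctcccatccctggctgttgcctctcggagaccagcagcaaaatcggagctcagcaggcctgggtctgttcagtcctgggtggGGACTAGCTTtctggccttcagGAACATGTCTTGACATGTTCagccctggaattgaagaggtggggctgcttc
Cdkn1a downstream start, chr17:29093519-29093768, plus strand: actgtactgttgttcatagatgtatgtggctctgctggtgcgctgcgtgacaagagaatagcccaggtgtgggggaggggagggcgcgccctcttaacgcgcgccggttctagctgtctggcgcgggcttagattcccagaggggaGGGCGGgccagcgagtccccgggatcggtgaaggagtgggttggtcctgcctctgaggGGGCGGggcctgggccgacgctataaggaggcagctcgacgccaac
Cdkn1b start, chr6:134920151-134920400, plus strand: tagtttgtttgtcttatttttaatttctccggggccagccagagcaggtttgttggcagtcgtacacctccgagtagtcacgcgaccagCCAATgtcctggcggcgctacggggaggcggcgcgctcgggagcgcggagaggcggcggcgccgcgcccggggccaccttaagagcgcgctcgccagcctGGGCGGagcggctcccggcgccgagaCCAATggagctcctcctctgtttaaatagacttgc
Cdkn2b start, chr4:89311033-89311282, minus strand: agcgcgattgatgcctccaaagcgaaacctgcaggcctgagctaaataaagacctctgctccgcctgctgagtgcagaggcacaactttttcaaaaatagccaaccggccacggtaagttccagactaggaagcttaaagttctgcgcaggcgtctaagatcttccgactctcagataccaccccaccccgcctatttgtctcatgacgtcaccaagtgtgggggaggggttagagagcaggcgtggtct
Cdkn2c upstream start, chr4:109666757-109667006, minus strand: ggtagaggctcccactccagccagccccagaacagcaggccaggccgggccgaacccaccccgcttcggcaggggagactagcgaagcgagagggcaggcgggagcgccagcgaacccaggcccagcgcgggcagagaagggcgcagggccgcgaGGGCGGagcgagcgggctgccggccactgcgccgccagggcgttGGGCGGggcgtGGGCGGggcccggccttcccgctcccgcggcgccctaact

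A full p53 site, made of 2 adjoining half-sites with at most 1 mismatch in each, was found in 1 of the 9 windows. It was the 20-base run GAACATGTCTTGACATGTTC at chr17:29090928-29090947, whose first half-site had 0 mismatches and whose second half-site had 1. It began 51 bases before the upstream start of Cdkn1a and 2841 bases before the downstream start. Of 32851 promoter windows of the same length, 153 (0.466%) held such a site. A single p53 half-site was found in 8.36% of all windows and in 2 of the 9 here, the upstream Cdkn1a window and that of Cdkn2d.

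The 2 Cdkn1a start sites differed in base composition. The upstream window had 2 CpG dinucleotides in its 300 bases (250 before and 50 after the start) and no GC box, whereas the downstream window had 23 CpG and GC boxes beginning 104 and 46 bases before the start. A GC box was present in 7 of the 9 windows, against 35.7% of all windows, and a CCAAT box in 4 of the 9, against 37.4%. The Cdkn2b window had a single GC box, 4 bases past the start and thus outside the bases printed above. None of the 9 windows held the TATA box TATAAA (13.6% of all windows) or the core of the interferon-stimulated response element (3.44%), and these matches describe letters only. The count table merges all transcripts of a gene, so the use of the start sites could not be separated.

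Cdkn1a was 5.53-fold higher in the tamoxifen libraries, by the ratio of the group means. Levels are in CPM, the usual scaling of a count to the depth of its library, here with edgeR's TMM factors over the tested genes. Cdkn1a measured 18.2, 22.3 and 15.5 CPM in oil libraries 1, 3 and 4, and 95.7, 118 and 95.3 CPM in tamoxifen libraries 1, 2 and 4. The groups did not overlap, and the spread of the tamoxifen libraries was narrow in proportion to their mean, with a coefficient of variation of 12.7% against 18.4% with oil. The means were 18.6 ± 3.43 CPM with oil and 103 ± 13.1 CPM with tamoxifen (SD, n = 3 each), and the fitted log2 fold change was 2.47 ± 0.16 (SE). Among all tested genes the transcript moved from between percentiles 30.4 and 37.3 of level in oil libraries to between percentiles 75.5 and 80.7 with tamoxifen. The counts behind these values ran from 300.5 to 459.5 with oil and from 1725.5 to 2002.5 with tamoxifen. In these bulk samples a change in the share of one kind of cell and a change in RNA per cell cannot be told apart.

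**Figure D1:**
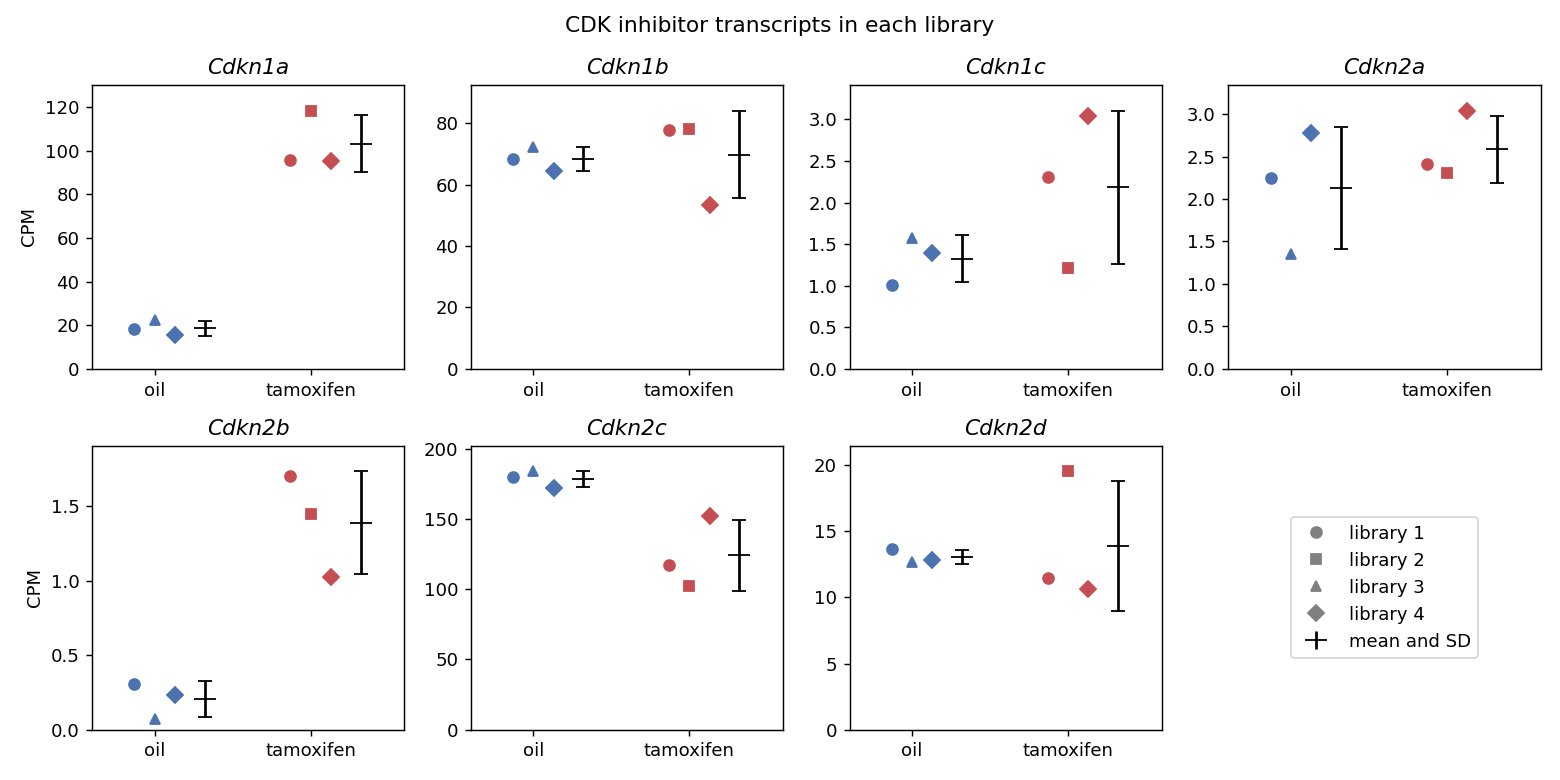
Expression (CPM, vertical axis from 0) of the 7 CDK inhibitor genes in each oil library (blue) and tamoxifen library (red), with the mean and SD of each group in black. The 3 tamoxifen libraries sit above the oil libraries for Cdkn1a and Cdkn2b and below them for Cdkn2c, and the groups overlap for the other 4 genes.

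The gene lies at chr17:29090976-29100727 on the plus strand (mm10, GENCODE M21), and AC167363.2 overlaps it on the other strand. Whether the counting used strand is not given in the sources used here, so reads from that gene cannot be separated from Cdkn1a.

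Cdkn1b, which encodes p27, the CDK2 inhibitor of resting cells, did not pass the threshold. It measured 68.2, 72.1 and 64.5 CPM in oil libraries 1, 3 and 4, and 77.9, 78.1 and 53.3 CPM in tamoxifen libraries 1, 2 and 4. Tamoxifen 1 and 2 lay above the oil libraries and tamoxifen 4 below them, so the groups overlapped. The log2 fold change was 0.031 ± 0.15 (SE; edgeR quasi-likelihood test with Benjamini-Hochberg adjustment over 11614 genes, adjusted p = 0.919). The gene lies at chr6:134920401-134925513 on the plus strand.

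Cdkn1c, which encodes p57, an imprinted inhibitor known from quiescent stem cells, was near the lower end of detection. It measured 1.01, 1.58 and 1.39 CPM in the oil libraries and 2.30, 1.21 and 3.04 CPM in tamoxifen 1, 2 and 4, from 18 to 55 counts per library. Tamoxifen 2 lay within the oil range and the other two above it. The log2 fold change was 0.72 ± 0.40 (SE, adjusted p = 0.335 by edgeR). The gene lies at chr7:143458339-143461050 on the minus strand, and Gm44732 overlaps it on the other strand.

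Cdkn2a and Cdkn2b lie next to each other on the minus strand of chromosome 4, at chr4:89274471-89294653 and chr4:89306299-89311039. Cdkn2a encodes p16Ink4a and, in another reading frame from its other start site, p19Arf, which protects p53 from Mdm2. The row merges both transcripts. It measured 2.25, 1.36 and 2.78 CPM in oil libraries 1, 3 and 4, and 2.41, 2.30 and 3.04 CPM in tamoxifen 1, 2 and 4. The groups overlapped, and the log2 fold change was 0.28 ± 0.33 (SE, adjusted p = 0.630 by edgeR).

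Cdkn2b, which encodes p15, the INK4 protein induced by TGF-beta and often silenced by methylation in myeloid leukaemia, was the single gene called among the 6 that carry a test. Its counts were 5.5, 1.5 and 4.5 in oil libraries 1, 3 and 4, and 31, 24.5 and 18.5 in tamoxifen libraries 1, 2 and 4. These correspond to 0.310, 0.0727 and 0.232 CPM with oil, and to 1.70, 1.45 and 1.02 CPM with tamoxifen. The groups did not overlap, though the level stayed low in each. Means were 0.205 ± 0.121 and 1.39 ± 0.343 CPM (SD, n = 3 each), and the log2 fold change was 2.67 ± 0.51 (SE, adjusted p = 0.0438 by edgeR). A count of 3, the floor used here, equals 0.145 to 0.177 CPM, so oil 3 lay below it. The gene reached the low-count filter in 3 of 3 tamoxifen libraries and 0 of 3 oil libraries, so it entered the test through the group in which it was high. The call was lost in 5 of the 6 fits that left out one library, with adjusted p between 0.132 and 0.198 (edgeR), and held without tamoxifen 4 (adjusted p = 0.00354). With limma-voom the adjusted p was 0.0715, and with a replicate block it was 0.157 (edgeR).

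Cdkn2c was the most abundant inhibitor transcript in the oil libraries and was lower in each tamoxifen library, without passing the threshold. It measured 180, 184 and 172 CPM in oil libraries 1, 3 and 4, and 118, 103 and 152 CPM in tamoxifen 1, 2 and 4. The groups did not overlap, and tamoxifen 4 was the closest to oil. Means were 179 ± 5.79 and 124 ± 25.4 CPM (SD, n = 3 each), a ratio of 0.695, and the log2 fold change was -0.53 ± 0.14 (SE, adjusted p = 0.101 by edgeR). Without tamoxifen 4 it was -0.70 with an adjusted p of 0.000265 (edgeR), and the DESeq2 Wald test on all the libraries gave an adjusted p of 0.0164. The gene lies at chr4:109660876-109667189 on the minus strand.

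Cdkn2d, which encodes p19Ink4d, varied with 1 library. It measured 13.6, 12.7 and 12.8 CPM in oil libraries 1, 3 and 4, and 11.5, 19.5 and 10.6 CPM in tamoxifen 1, 2 and 4. Tamoxifen 2 lay above the oil libraries and the other two below them. The log2 fold change was 0.088 ± 0.23 (SE, adjusted p = 0.841 by edgeR), and it was -0.23 without tamoxifen 2. The gene lies at chr9:21288410-21291407 on the minus strand.

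Of the 6 genes that were added by family name, 1 was called higher (Cdkn2b) and 0 lower at an adjusted p under 0.05 by edgeR. Cdkn2c had an unadjusted p of 0.00554 (edgeR) and was called lower by DESeq2. Cdkn2b was tested through the tamoxifen libraries alone, so its call is no support for the family. Over all 11614 tested genes 1.75% were called higher and 0.267% lower. Of the 7 genes, 3 had groups without overlap, namely Cdkn1a, Cdkn2b and Cdkn2c, against 25.0% of all tested genes. Cdkn1a was chosen by its rise and Cdkn2b entered through the tamoxifen libraries, so this count is no support for the family either. Apart from them, Cdkn2c was the single member without overlap.

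Because longer transcripts collect more reads, levels were compared between genes as CPM per kb of exon, and the order of the family changed between the groups. With oil the order was Cdkn2c (66.5 ± 2.16), Cdkn1b (15.0 ± 0.832), Cdkn2d (8.84 ± 0.341), Cdkn1a (6.86 ± 1.26), Cdkn2a (1.82 ± 0.613), Cdkn1c (0.683 ± 0.147) and Cdkn2b (0.147 ± 0.0868), as mean CPM per kb ± SD of 3 libraries. The ranges of neighbours in this order were separate throughout. With tamoxifen Cdkn1a moved from the fourth place to the second, at 37.9 ± 4.83 CPM per kb, and its range overlapped that of Cdkn2c at 46.2 ± 9.47. The next places were held by Cdkn1b (15.3 ± 3.13) and Cdkn2d (9.41 ± 3.33), whose ranges overlapped, as did those of Cdkn1c (1.12 ± 0.474) and Cdkn2b (0.735 to 1.22) at the low end.

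**Figure D2:**
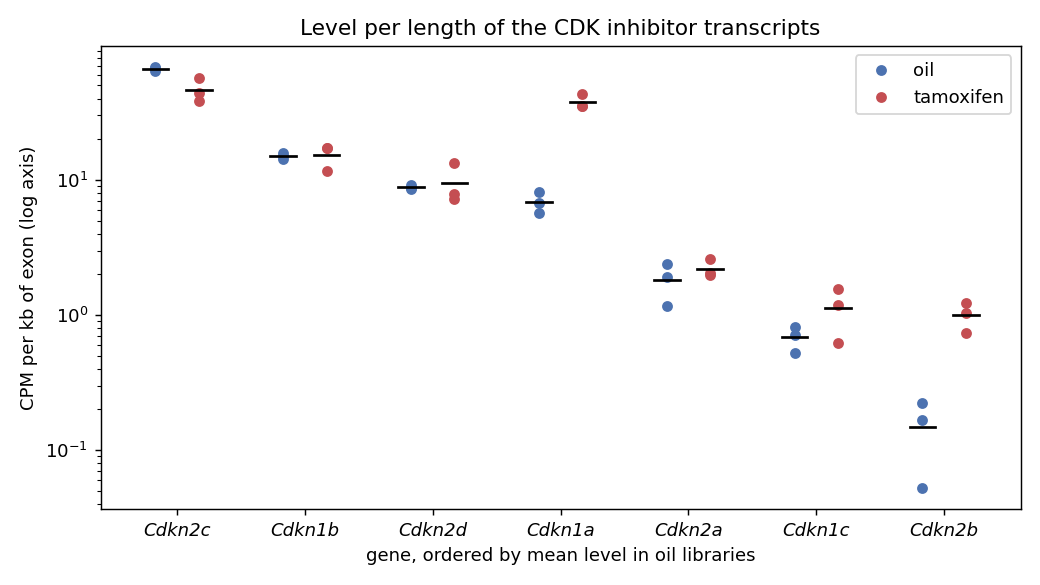
Level per length (CPM per kb of exon, logarithmic vertical axis) of the 7 genes in each oil (blue) and tamoxifen (red) library, with black bars at the group means, ordered by the oil mean. Cdkn1a goes from a mean of 6.86 to 37.9, next to Cdkn2c at 46.2, while Cdkn1b stays near 15.

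In the CIP/KIP family the leading transcript was a different one in each group. On the per-kb scale Cdkn1a made up 30.1%, 33.0% and 27.6% of the family in oil libraries 1, 3 and 4, and 65.8%, 71.0% and 72.5% in tamoxifen 1, 2 and 4. Cdkn1b made up 66.7 ± 2.66% with oil and 28.1 ± 3.89% with tamoxifen (SD, n = 3 each). Per length, Cdkn1a stood at 0.401 to 0.517 times Cdkn1b in oil libraries and at 2.06 to 2.99 times in tamoxifen libraries. The summed level of the 3 genes was 22.5 ± 2.15 CPM per kb with oil and 54.4 ± 6.51 with tamoxifen. These shares use the contrast that selected Cdkn1a and are given as a description.

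The INK4 family kept the same leading transcript in all 6 libraries. Cdkn2c made up 86.0 ± 1.26% of the family's counts per kb with oil and 79.8%, 70.2% and 84.3% in tamoxifen 1, 2 and 4. The summed level of the 4 genes was 77.3 ± 1.66 CPM per kb with oil, and 54.9, 54.4 and 67.2 CPM per kb in tamoxifen 1, 2 and 4. Every tamoxifen library lay below the oil libraries in this sum.

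**Figure D3:**
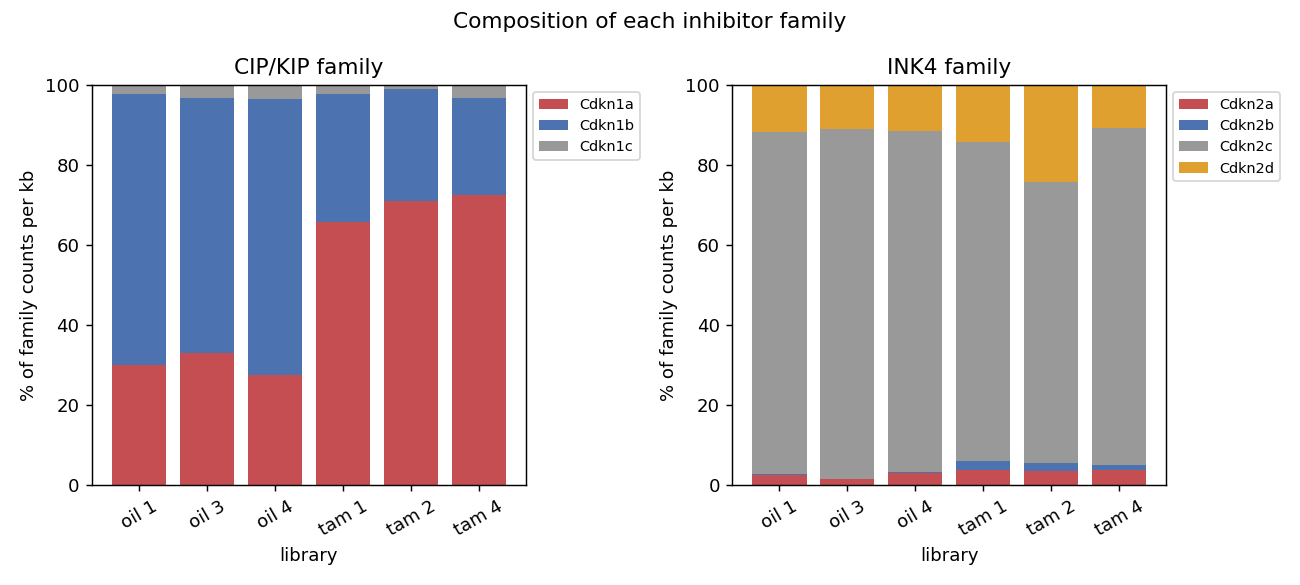
Stacked bars of the percent of each family's counts per kb (vertical axis, 0 to 100) that each gene made up, one bar per library, for CIP/KIP (left) and INK4 (right). Cdkn1a goes from at most 33.0% in an oil library to at least 65.8% in a tamoxifen library, and Cdkn2c leads the INK4 family in all 6.

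Tamoxifen 4 stood apart from tamoxifen 1 and 2 over all genes, and its place differed between the inhibitors. On the first principal component (65.1% of the variance) it lay at -2.99, with tamoxifen 1 and 2 at 37.3 and 47.5 and the oil libraries between -31.1 and -23.4. Set between the oil mean at 0% and the mean of tamoxifen 1 and 2 at 100%, it stood at 86.8% for Cdkn1a, 59.7% for Cdkn2b and 38.6% for Cdkn2c. These genes were placed because their groups did not overlap, so tamoxifen 4 had to lie on the tamoxifen side of the oil libraries. For inhibitors with overlap, tamoxifen 4 lay below the oil libraries (Cdkn1b and Cdkn2d) or above them (Cdkn1c and Cdkn2a). On the same scale the median over the 234 genes called was 55.3%. The same measure had a median of 68.6% over 16 tested p53 target genes and of -2.72% over 20 E2F-driven replication genes. In tamoxifen 4 the Cdkn1a transcript, chosen by its rise, was close to its level in the other tamoxifen libraries. The replication genes as a list were at the oil level there, and a link between these values was not tested.

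Of the 25 tested genes among the 5 annotated neighbours on each side of every inhibitor gene, 2 were called higher and 0 lower. Over all tested genes 1.75% were called higher and 0.267% lower. Both called neighbours flank Cdkn1a. Trp53cor1, the p53-induced noncoding RNA also called lincRNA-p21, had 4, 5 and 3 counts in oil libraries 1, 3 and 4, and 32, 18.5 and 25.5 in tamoxifen 1, 2 and 4. Its log2 fold change was 2.74 ± 0.44 (SE, adjusted p = 0.0342 by edgeR). It passed the low-count filter in 0 of 3 oil and 3 of 3 tamoxifen libraries, so it too entered the test through the group in which it was high. Its annotated span overlaps that of Gm41556, and that of Rab44 holds the pseudogene Rpl35a-ps3, so reads from these could add to the counts. Rab44, a large Rab GTPase gene, had a mean of 49.3 ± 1.98 CPM with oil and measured 200, 313 and 90.4 CPM in tamoxifen 1, 2 and 4. Its log2 fold change was 2.03 ± 0.38 (SE, adjusted p = 0.0429 by edgeR). For both genes every tamoxifen library was above every oil library, but tamoxifen 4 was the lowest tamoxifen library for Rab44 and not for Trp53cor1. Of the other tested neighbours of Cdkn1a, the fitted value was 2.40 for Cpne5 (adjusted p = 0.0800) and, for the splicing factor gene Srsf3, -0.20 (adjusted p = 0.388, both by edgeR). The calls of Trp53cor1 and Rab44 were lost in 5 of the 6 fits that left out one library and held without tamoxifen 4. In that fit 10 neighbours were called, and over all 11851 tested genes 2278 were called higher and 2024 lower.

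**Figure D4:**
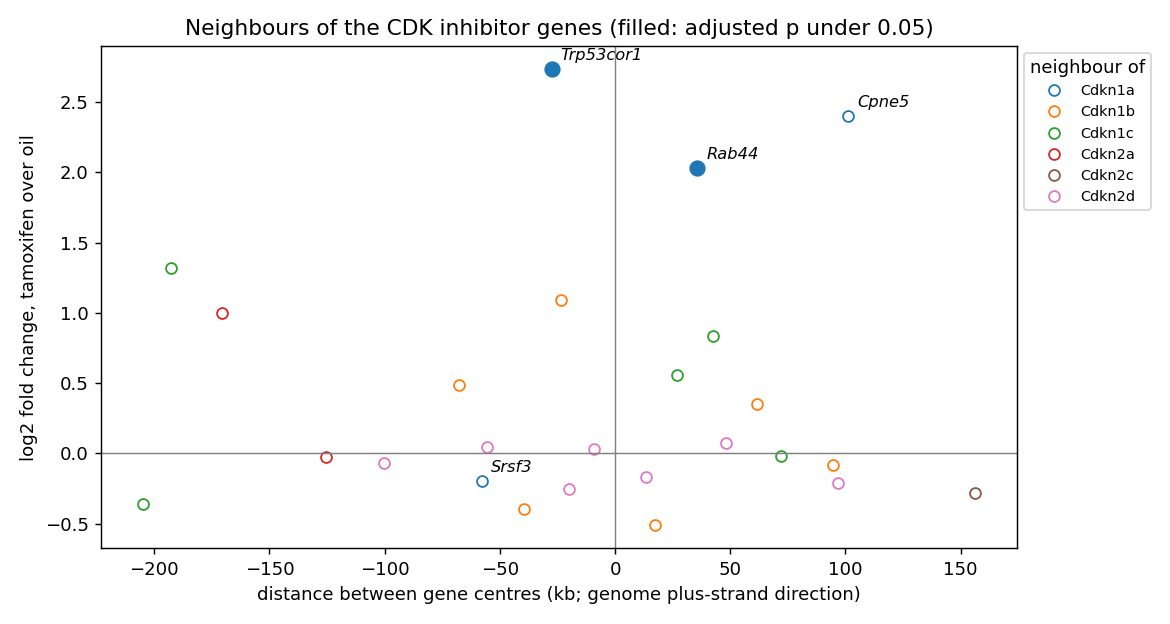
Log2 fold change (tamoxifen over oil) of 25 tested neighbouring genes against the distance in kb between their centre and that of the inhibitor gene, coloured by the inhibitor gene they flank. The filled points, Trp53cor1 and Rab44, passed the threshold, and both lie beside Cdkn1a.

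The genes whose pattern was most like that of Cdkn1a were ranked by Pearson correlation of log2 CPM over the 6 libraries among 11122 genes. They were Arl13b (r = 0.995), Tigd2 (0.995), Selenop (0.994), Gpr55 (0.992) and Celsr1 (0.990). Arl13b, a small GTPase gene of the primary cilium, went from 19.0 to 19.7 CPM with oil to between 26.8 and 29.2 CPM with tamoxifen. Celsr1, a planar polarity cadherin, went from between 11.6 and 14.4 CPM to between 40.5 and 54.6 CPM. These points share libraries and depth with Cdkn1a, and the ranking is a description. Among the inhibitors themselves, r with Cdkn1a was 0.918 for Cdkn2b, -0.863 for Cdkn2c, 0.534 for Cdkn1c, 0.325 for Cdkn2a, 0.141 for Cdkn2d and 0.098 for Cdkn1b.

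Lists of genes around the inhibitors were read in the same fit, beginning with the kinases and cyclins that these proteins bind. Of 12 tested genes for CDKs and cyclins, 0 were called in either direction by edgeR, 3 had an unadjusted p under 0.05 (20.6% of all tested genes did), and the median log2 fold change was -0.26, against 0.0001 over all tested genes. The 2 with the largest fold changes were the S-phase cyclins Ccne2, with 44.3 ± 2.20 CPM with oil and 30.6 ± 7.07 with tamoxifen (log2 fold change -0.53, adjusted p = 0.138), and Ccna2 (-0.47, adjusted p = 0.263). Tamoxifen 4 was close to oil here too, with 356 CPM of Ccna2 against a mean of 360 with oil and against 243 and 180 CPM in tamoxifen 1 and 2. DESeq2 called 1 gene of the list (lower) and limma-voom 0. Without tamoxifen 4 edgeR called 7 lower and 1 higher, against 2024 lower and 2278 higher of all 11851 genes tested there.

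Of 17 tested pocket protein and E2F genes, 1 was called lower and 0 higher, against 0.267% and 1.75% of all tested genes. The median log2 fold change was -0.25. The called gene was E2f2, an activator E2F. It measured 117, 106 and 93.5 CPM in oil libraries 1, 3 and 4, and 72.7, 68.8 and 71.5 CPM in tamoxifen 1, 2 and 4. Its tamoxifen values lay closely together, tamoxifen 4 included, and its log2 fold change was -0.57 ± 0.10 (SE, adjusted p = 0.0399 by edgeR). E2f1 (-0.63, adjusted p = 0.136) and E2f5 (-0.66, adjusted p = 0.213) did not pass the threshold. DESeq2 called 2 and limma-voom 0, and without tamoxifen 4 edgeR called 11 genes of the list lower and 1 higher. Of all 11851 genes tested in that last fit, 2024 were called lower and 2278 higher.

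Of 20 tested replication and division genes driven by E2F, 0 were called by edgeR and 6 had an unadjusted p under 0.05, against 20.6% of all tested genes. Their fold changes were negative for 20 of 20, with a median of -0.47, while 5809 of all 11614 tested genes had a positive one. Ccne1, Ccna2 and Cdk1 are also in the list of CDKs and cyclins. Cdc6, which loads the replicative helicase, had the largest, with 143, 111 and 141 CPM in oil libraries 1, 3 and 4, and 56.2, 69.5 and 118 CPM in tamoxifen 1, 2 and 4 (log2 fold change -0.69, adjusted p = 0.200). Tamoxifen 4 fell within the oil range and the other two below it. For Mki67, the proliferation antigen, the log2 fold change was -0.62 (adjusted p = 0.203). DESeq2 and limma-voom called 0 as well. Without tamoxifen 4 edgeR called 19 of the 20 lower, against 2024 lower of all 11851 genes tested there.

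**Figure D5:**
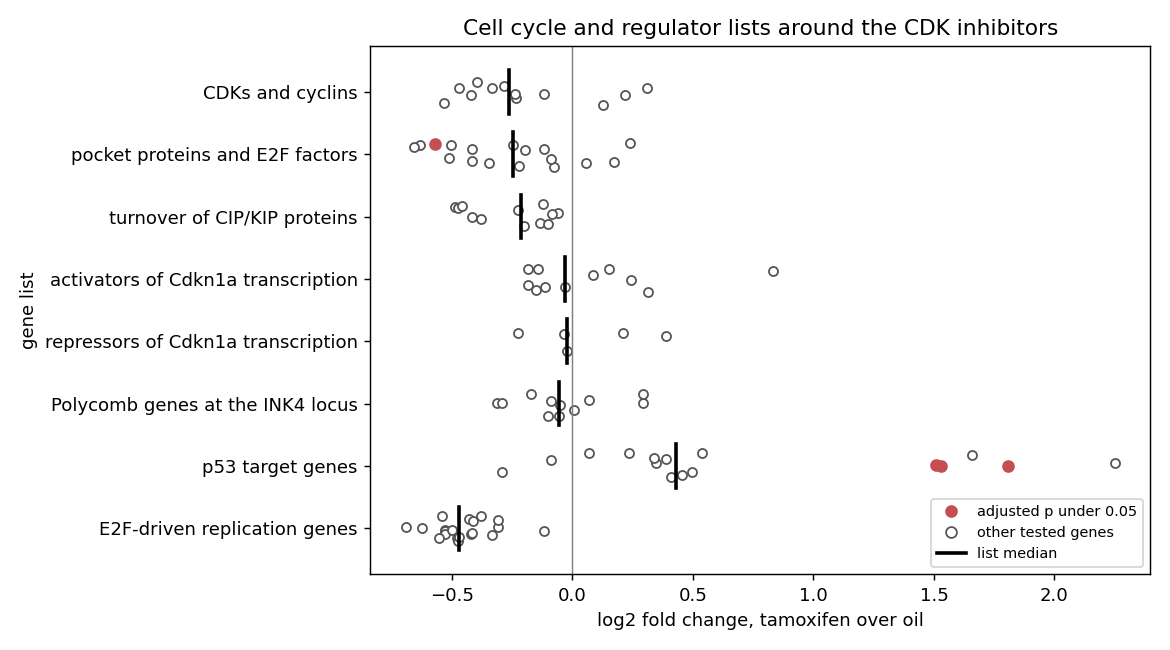
Log2 fold change (tamoxifen over oil, horizontal axis) of each tested gene in 8 lists, with vertical bars at the list medians and filled points for genes with an adjusted p under 0.05. The p53 target list has 3 called genes and a median of 0.43, and the 20 E2F-driven replication genes all lie below 0 with 0 called.

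The genes that act on Cdkn1a were described next. Of 11 tested transcriptional activators and 5 tested repressors, 0 were called by edgeR. An unadjusted p under 0.05 was found for 1 activator and 3 repressors, against 20.6% of all tested genes. Those repressors were Mdm2 and Mdm4, both higher with tamoxifen, and Hdac1, which was lower. Among activators the largest fold change was that of Foxo1 (0.83, adjusted p = 0.281). Among repressors they were those of Mdm2, the p53 ubiquitin ligase and itself a p53 target (0.39, adjusted p = 0.107), and Hdac1 (-0.23, adjusted p = 0.239). Mdm2 measured 55.8 ± 6.50 CPM with oil and 73.0 ± 3.01 with tamoxifen (SD, n = 3 each), without overlap. DESeq2 called 0 activators and 1 repressor, and limma-voom 0 of either.

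Of 16 tested p53 target genes, Cdkn1a not among them, 3 were called higher and 0 lower, against 1.75% and 0.267% of all tested genes. An unadjusted p under 0.05 was reached by 12, against 20.6% of all tested genes. Of these 12, Sesn1 was lower with tamoxifen (log2 fold change -0.29). Fold changes were positive for 14 of the 16 and negative for Sesn1 and Phlda3 (-0.087), while 5809 of all 11614 tested genes had a positive one. The median log2 fold change of the list was 0.43. Zmat3, an RNA-binding p53 target, measured 26.3, 30.1 and 30.3 CPM in oil libraries 1, 3 and 4, and 93.7, 83.8 and 72.6 CPM in tamoxifen 1, 2 and 4. The groups lay far apart in relation to their spread, with a log2 fold change of 1.53 ± 0.12 (SE, adjusted p = 0.00312 by edgeR), and the call held in 6 of the 6 fits that left out one library. Also called higher were Trp53inp1, a stress-induced regulator of p53 (1.51, adjusted p = 0.0420), and Eda2r, a receptor of the TNF receptor family (1.81, adjusted p = 0.0454). Perp (2.25, adjusted p = 0.160) and Ddit4 (1.66, adjusted p = 0.0716) did not pass the threshold. Without tamoxifen 4, 11 of the list were called higher, and without any other single library 1 was. Over all 11851 genes tested without tamoxifen 4, 2278 were called higher and 2024 lower.

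Of 12 tested genes that control the turnover of CIP/KIP proteins, 0 were called by edgeR. An unadjusted p under 0.05 was reached by 4, against 20.6% of all tested genes. The fold changes were negative for 12 of 12, with a median of -0.21, while 5809 of all 11614 tested genes had a positive one. The list includes Cks1b, which helps the SCF ligase recognise p27 (-0.49, adjusted p = 0.218). It also includes Dtl, which targets p21 for destruction on chromatin (-0.48, adjusted p = 0.289, both by edgeR). DESeq2 called 1 gene of the list and limma-voom 0. Without tamoxifen 4 edgeR called 8 lower, against 2024 lower of all 11851 genes tested there. Of 11 tested Polycomb genes, which silence the Cdkn2a and Cdkn2b locus, 0 were called by edgeR and 1 had an unadjusted p under 0.05. The share with such a p over all tested genes was 20.6%, and the list median was -0.06. The largest fold changes were those of Suz12 (-0.31, adjusted p = 0.253) and Cbx7 (0.29, adjusted p = 0.337). DESeq2 and limma-voom called 0. Without tamoxifen 4 edgeR called 3 lower and 1 higher, against 2024 lower and 2278 higher of all 11851 genes tested there.

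The libraries held between 17118964 and 20741399 counts. Usp18, the targeted gene, was not lower in the libraries labelled tamoxifen: it measured 9.12, 11.0 and 11.2 CPM with oil and 15.1, 28.0 and 19.4 CPM with tamoxifen (log2 fold change 0.998, adjusted p = 0.0739 by edgeR), and these gene totals do not show whether the floxed part was lost. Of 6 markers of the sorted cells, Kit measured 439 to 782 CPM, Gata2 457 to 652 and Runx1t1 106 to 151 over all the libraries. Those genes did not pass the threshold. Flt3 was at 0 in all the libraries, and Mpo reached at most 0.207 CPM. Cd34 was called higher (8.41 to 11.7 CPM with oil and 41.8 to 134 with tamoxifen). Of 10 mast cell markers, Tpsb2 (past the low-count filter in the tamoxifen libraries alone) and Fcer1a were called higher, against 1.75% of all tested genes. Fold changes were positive for 9 of the 10, with 0.07 for Mcpt1 and -0.04 for Ms4a2. The summed level ran from 2663 to 2886 CPM with oil and from 3332 to 7287 with tamoxifen. In tamoxifen 2, Cma1 and Cpa3, neither of them called, measured 2170 and 1064 CPM of it. Of 10 T and NK cell markers, 7 were at 0 and Nkg7 was the single one tested, and called, with sums of 1.13 to 2.57 CPM and 7.65 to 56.4 CPM. The tamoxifen sums were Nkg7 alone, since every other marker of that list was at 0 in all the tamoxifen libraries. The 8 erythroid markers had sums of 3828 to 6102 CPM with oil and 3065 to 7462 CPM with tamoxifen. No macrophage marker of 7 tested was called (edgeR, 2 at an unadjusted p under 0.05; sums of 4.56 to 8.86 CPM and 7.13 to 15.6 CPM), and neutrophil and B cell markers summed to at most 1.21 and 0.878 CPM. The part of these markers in the inhibitor values was not tested.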

How the data were processed

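RNA was sequenced from 3 oil and 3 tamoxifen libraries. The values the authors deposited were estimated counts per gene, not scaled between libraries, and 25.9% to 27.3% of those in a library had a fractional part. The submitters' processing notes name STAR, DESeq2 and mm10, and the counting program, annotation and strand setting are not given in the sources used here. Libraries carry the numbers of the count table, which differ from the titles for oil 3 and tamoxifen 2.

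Counts were rounded and analysed in R 4.3.3 with edgeR 4.0.16 (filterByExpr by group, TMM, quasi-likelihood F test), with Benjamini-Hochberg adjustment over 11614 genes and a threshold of 0.05. CPM used unrounded counts and the TMM-scaled total of tested genes. Standard errors came from the F statistics. Per-kb levels used union exon length (GENCODE M21). The pipeline was tested on simulated data. DESeq2 1.42.0, limma 3.58.1 and the other alternatives are given in the closing section. Without molecular identifiers, reads are not independent molecules, so floors reflect counting error alone.

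The members and lists were chosen with earlier results of these data known. The text names all 7 members, of each list the genes called and the 2 largest fold changes not called, the 5 genes most like Cdkn1a, called markers and neighbours, and Usp18. Genes named by place, role or direction outside this rule (Cpne5, Srsf3, Flt3, Mpo, Kit, Gata2, Runx1t1, Mdm4, Sesn1, Phlda3, Ccne1, Cdk1, Mcpt1, Ms4a2, Cma1, Cpa3) were chosen after their values were seen. Some genes that this rule would name are not reported here.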

Additional observations from a re-analysis of the deposited data

How the results depend on the processing

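Cdkn1a had a log2 fold change of 2.34 to 2.61 over 14 alternatives. DESeq2 called 713 genes higher and 231 lower, limma-voom 48 and 6, a fit without the low-count filter 372 and 61, and one restricted to a mean of at least 50 counts 120 and 17. Leaving out one library gave 8 to 2278 genes higher and 0 to 2024 lower, with the upper ends without tamoxifen 4. With a replicate block, which left 1 residual degree of freedom, the log2 fold change was -0.041 for Cdkn1b, 1.15 for Cdkn1c, 2.28 for Cdkn2b and -0.26 for Cdkn2d. In that fit oil 3 and tamoxifen 2 each had a block of its own, so the comparison rested on the libraries numbered 1 and 4. For these numbers, which occur in both groups, deviations from the group means correlated at -0.127 and 0.062. So few shared numbers cannot decide whether the libraries were paired, and the main fit used no block. Leaving out one library gave Cdkn1b -0.056 to 0.19, Cdkn1c 0.40 to 1.01, Cdkn2a 0.036 to 0.52, Cdkn2b 2.31 to 3.13, Cdkn2c -0.70 to -0.40 and Cdkn2d -0.23 to 0.25. The log2 fold change of Cdkn2b was 2.67 with limma-voom, and that of Cdkn2c was -0.52 with DESeq2. Of 35 genes whose fold change was recomputed, 2 (Cdkn1b and Cdkn2d, neither of them called) reversed under any alternative.

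For CDKs and cyclins DESeq2 called 1 gene, and leaving out one library gave 0 to 8. For pocket proteins and E2F factors DESeq2 called 2, limma-voom 0, and leaving out one library gave 0 to 12. For CIP/KIP turnover DESeq2 called 1 and leaving out one library gave 0 to 8, and for repressors the values were 1 and 0 to 2. Leaving out one library gave 0 to 2 activators, 0 to 4 Polycomb genes and 0 to 19 E2F-driven replication genes. For p53 targets DESeq2 called 8, limma-voom 1, the fit without the filter 5, the 50-count filter 1, and leaving out one library gave 1 to 11. For neighbouring genes limma-voom and the 50-count filter called 0, and leaving out one library gave 0 to 10. Of 11 genes outside the family that were called among the lists, markers and neighbours, 1 (Zmat3) was called in all the fits without one library and 10 in the fit without tamoxifen 4 alone. Unrounded counts, an alternative chosen after seeing the data, changed no call counts by over 1.5 times. The cause of these differences was not tested.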
